A study of Homo sapiens with 6 samples.

Results

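The genes for the proteins of the cytoplasmic ribosome were examined in RNA-Seq libraries of U2OS cells, a human osteosarcoma line. Members were the protein-coding genes with the symbol RPL or RPS, a number and an optional suffix A, L, X or L1, together with RPLP0, RPLP1, RPLP2 and RPSA, whereas RPS6K kinases, RPS4Y genes and pseudogenes were left out. This rule gave 84 of the 67140 genes on the list. Of the 84 genes, 77 had a core symbol (46 of the large and 31 of the small subunit) and 7 had the suffix L or L1, which marks a copy of a core gene. They were spread over 21 chromosomes, with 12 on chromosome 19 and 9 on chromosome 3.

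Ribosomal proteins take part in the assembly or the function of the ribosomal subunits. Most of their mRNAs start with a run of pyrimidines, the terminal oligopyrimidine (TOP) motif, through which growth signals control their translation. When ribosome assembly is disturbed, free RPL5, RPL11 and RPL23 can bind MDM2, a ubiquitin ligase of the DNA damage response. Etoposide and adriamycin are topoisomerase II poisons that break DNA.

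The study had 3 groups with 2 libraries each. Control cells received no treatment, adriamycin cells received 1.5 µg/ml for 4 h, and etoposide cells received 100 µM for 4 h, and all groups carried the wild-type genotype in the labels. Only RPL22 was examined in the control libraries, whose first 280 to 292 genes were analysed, and no member in the adriamycin libraries, whose first 220 to 221 genes were analysed, and the other members were not analysed here in these groups. All 84 members were therefore described in the etoposide libraries, which held 21450766 and 14244235 counts. Legends of the study's expression figures describe the 2 replicates of a condition as technical. Nothing in the sources assigns the RNA-Seq libraries to separate cultures. The p-values and SDs therefore measure the spread between these libraries, which may be technical.

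The labels call the cells epithelial and the tissue bone. In the etoposide libraries the keratin genes KRT8 (20129 and 12074 counts) and KRT18 (4945 and 3048 counts) were abundant, EPCAM had 293 and 169 counts, CDH1 had 30 and 20, and the epithelial genes KRT19 and ESRP1 had at most 1 count. Of the osteoblast-lineage genes, COL1A1 (74285 and 51627 counts) and SPARC (24734 and 15855) were abundant, ALPL had 215 and 131 counts and RUNX2 had 101 and 69, and SP7, COL1A2 and BGLAP had at most 8 counts. The mesenchymal genes VIM (18341 and 11198), FN1 (10734 and 8907) and CDH2 (2693 and 1933) were all present. The blood genes PTPRC, HBB and CD3E had at most 6 counts.

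The start of the mRNA was read from RefSeq (GRCh38.p14) for the 67 members that matched, taking the listed start nearest to that of the canonical GENCODE transcript, and in 64 of these the 2 starts were the same base. Windows of 5 bases before and 20 bases from the start are shown 5′ to 3′, with the unbroken run of C and T from the first transcribed base in capitals. RPL22 is shown as the member compared with control cells, RPS12, RPL41 and RPLP0 for their high levels, RPL39 for the longest run, RPL3 for a run just under the limit of 5, and RPS10, RPL36A, RPL26 and RPL17 as core genes with few counts, of which RPL17 has no run.
RPL22: acctcCCTTTCTaactccgctgccg
RPS12: gaggcCTCTTTCCCTgccgccgccg
RPL41: cctttCTCTCggccttagcgccatt
RPLP0: gaggcCCTTCTCTCgccaggcgtcc
RPL39: agcttCCCTCCTCTTCCTTTCTCCg
RPL3: ccggcCTCTaccggcgggatttgat
RPS10: tccttCCTTTCCagccccggtaccg
RPL36A: ggtttCTTTCTTTCCgcgccgatag
RPL26: tagttCTCTTCCCTTTTgcggccat
RPL17: taagcagcctgaggtgagtgtttct
These windows lie at chr1:6199576-6199600 for RPL22, chr6:132814564-132814588 for RPS12, chr12:56116628-56116652 for RPL41, chr12:120201092-120201116 for RPLP0, chrX:119791611-119791635 for RPL39, chr22:39319604-39319628 for RPL3, chr6:34426050-34426074 for RPS10, chrX:101391006-101391030 for RPL36A, chr17:8383174-8383198 for RPL26 and chr18:49492446-49492470 for RPL17. RPS12, RPL41 and RPL36A are on the plus strand and the others on the minus strand.

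The suffixed copies are shown beside them, because most lacked such a run.
RPL22L1: gcttcCTCTCTgctctcgcggccga
RPS27L: cgagcgcagatcgcttgcagcttgc
RPL7L1: gcgccgtagctaggagcggacgcca
RPL10L: taagagagcgcattttgacttcgag
They lie at chr3:170870176-170870200, chr15:63157458-63157482, chr6:42879611-42879635 and chr14:46651762-46651786, with RPL7L1 on the plus strand and the others on the minus strand.

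A run of at least 5 pyrimidines from the annotated start was found in 46 of the 62 matched core members (74.2%, exact 95% binomial interval 61.5 to 84.5%, which covers counting error only), and in all 46 the first base was C. The same run was found in 4.91% of the 15811 promoters of coding genes and in 5.24% of the 27195 promoters of all genes. The median run was 7 bases in the core members and 0 in the coding genes, and the longest among members was the 19 bases of RPL39. When the run could start up to 5 bases to either side, it was found in 90.3% of the core members and in 30.6% of coding genes. Of the 5 matched suffixed genes only RPL22L1 had a run of at least 5. These are features of the annotation and were not measured in the libraries.

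**Figure D1:**
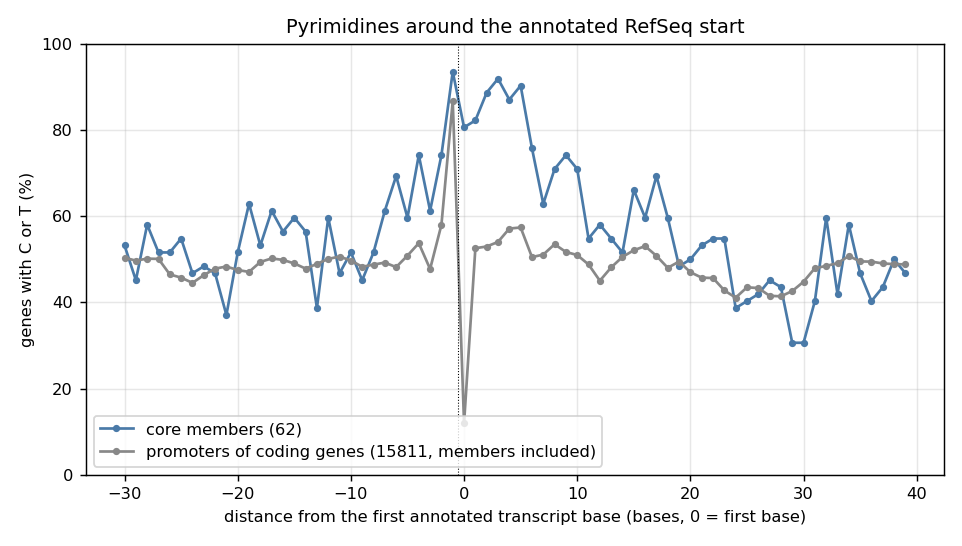
Share of genes with C or T (%, vertical axis) at each base around the annotated RefSeq start (horizontal axis, 0 is the first base), for 62 core members (blue) and 15811 coding genes with the members included (grey). At the third transcribed base, at distance 2, 88.7% of the core members and 53.0% of the coding genes had a pyrimidine.

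Other motifs were searched on both strands of the promoter window, 250 bases before to 50 bases from the start. The ETS core CCGGAAG was present in 33.9% of the core members and 14.6% of coding genes, and the YY1 core AAGATGGCG in 8.06% and 2.92%. The TATA box TATAAA was present in 8.06% of the core members and 9.44% of coding genes, and CCAAT in 32.3% and 36.3%. GGGCGG was found in 56.5% and 60.9%. The median GC content of the window was 59.7% in the core members and 63.7% in coding genes. A match of letters describes the window and does not show a bound site.

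RPL22, a large-subunit protein that also binds RNAs outside the ribosome, was the member that could be set against untreated cells. The control libraries held 1346 and 1000 counts of RPL22, and the etoposide libraries held 1399 and 877. Scaled over the shared genes by TMM, these were 1212 and 1238 normalized counts in control cells (1225 ± 18.6, SD, n = 2) and 1053 and 1046 in etoposide cells (1049 ± 5.03, SD, n = 2). The shared genes are the first of the list, a block at the start of chromosome 1, and not a sample of all genes. The scaling, the test and the shares of genes given for RPL22 rest on this block. The etoposide SD holds for this scale only. Scaled over all genes of the list, the 2 etoposide libraries lay further apart for RPL22, as given below. On the shared-gene scale both etoposide libraries lay below both control libraries. Such a separation, lower in etoposide, was also found in 38.1% of the 118 genes tested, and a separation in either direction in 72.0%.

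RPL22 was lower after etoposide by a log2 change of -0.22 (SE 0.077, 95% interval -0.39 to -0.051), which corresponds to 0.857 of the control level, but the change was not called (edgeR quasi-likelihood test, adjusted p = 0.052 over 118 genes). A call needed an adjusted p under 0.01 and a log2 change over 1, and the interval lies inside this limit. With these thresholds RPL22 was not among the 4.24% of the genes tested that were called, 1.69% higher (2 genes) and 2.54% lower (3 genes). Of the 118 genes, 80 including RPL22 changed by at least as much as RPL22 in either direction. The direction depended on the scaling, since under upper-quartile scaling the log2 change was 0.11 (adjusted p = 0.265). The scaling also moved the median log2 change of all tested genes, from 0.029 with TMM to 0.36 with upper-quartile scaling and 0.21 with library size alone. Relative to this median RPL22 lay at -0.25 under each of these 3 scalings. A change of scaling moves all genes by nearly the same amount. This agreement was therefore fixed in advance and does not settle the direction.

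**Figure D2:**
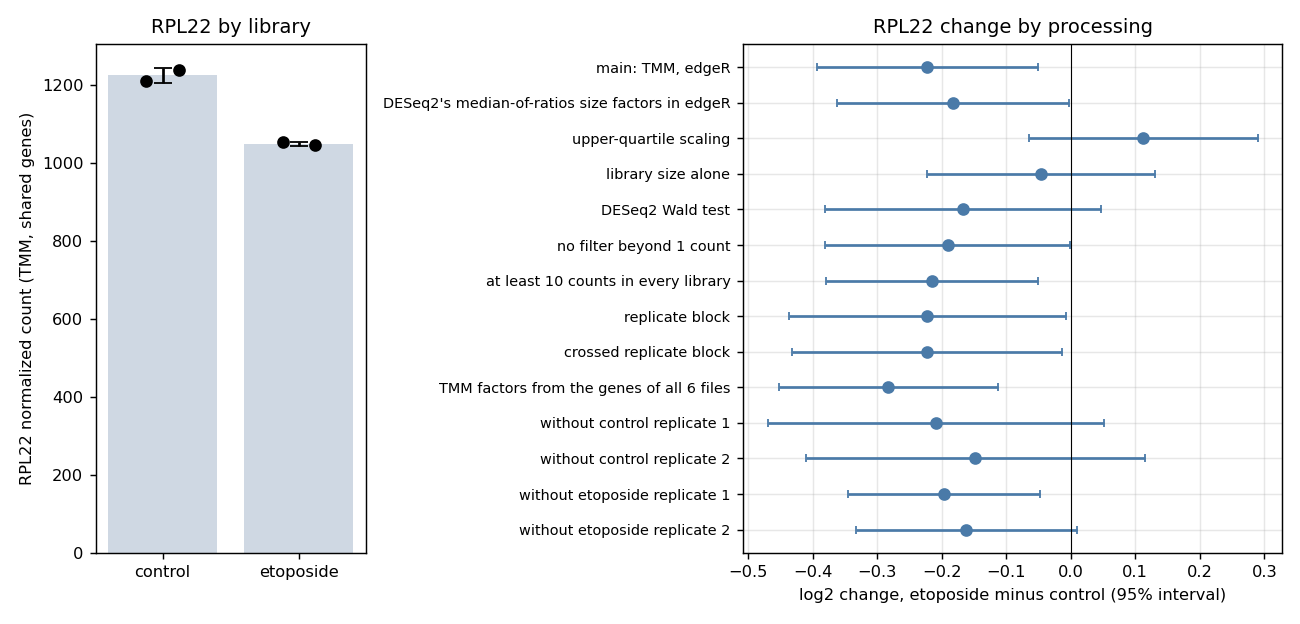
Left, RPL22 in normalized counts (bars, means; error bars, SD; points, the 2 libraries of each group), where the etoposide libraries at 1053 and 1046 lie below the control libraries at 1212 and 1238. Right, log2 change of RPL22, etoposide minus control, with its 95% interval under each setting. The change was negative in each setting except upper-quartile scaling. Several intervals included 0, such as that with library size alone (-0.22 to 0.13).

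In the etoposide libraries the members held 5.73% and 5.08% of all counts (5.40% ± 0.459, SD, n = 2). The core genes alone held 5.67% (Wilson 95% interval 5.66 to 5.68%) and 5.02% (5.01 to 5.03%), so the libraries differed by more than counting error. Large-subunit core genes took 3.41% and 3.04% of the counts, and small-subunit core genes took 2.26% and 1.98%. Among the 100 genes with the most counts, 26 were members. With 10 or more counts in each library 83 members were expressed, the exception being RPL3L with 12 and 6 counts.

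Levels were compared between genes per length, as counts per kilobase of merged exons scaled to a constant sum over all genes (TPM-like values). The median over the 84 members was 687 and 605 in the 2 libraries, against 11.9 and 12.7 over all expressed genes (10 or more counts in each library). RPS12, a small-subunit protein, had the highest level (4868 and 4263). RPS2, a small-subunit protein near the mRNA entry, followed with 4169 and 3779. RPS12 was the higher of the pair in each library, and the values of the pair did not overlap. The top 10 also held RPL8 (3096 and 2782), RPL41 (2709 and 2432), RPLP0 (2234 and 2063), RPLP1 (2034 and 1807), RPL29 (1770 and 1641), RPL13A (1602 and 1386) and RPS18 (1537 and 1343). RPL13A was above RPS18 in each library, but their values overlapped between libraries, so their order did not exceed that spread. RPLP0 and RPLP1 are proteins of the stalk that recruits translation factors. RPLP2, the partner of RPLP1 in the stalk, had 918 and 818. RPSA, a small-subunit protein also known as laminin receptor, had 930 and 854, and RPS4X, the X-linked copy of RPS4, had 1077 and 996.

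The MDM2-binding proteins had intermediate levels on this scale. RPL5 had 759 and 717, RPL11 had 699 and 641, and RPL23 had 299 and 275. In counts, MDM2 itself had 2814 and 1902, its relative MDM4 had 1073 and 789, and CDKN1A, a cell cycle inhibitor induced by DNA damage, had 12931 and 8535. These 3 genes did not pass the test between the libraries described below, with log2 ratios between -0.057 and 0.099.

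**Figure D3:**
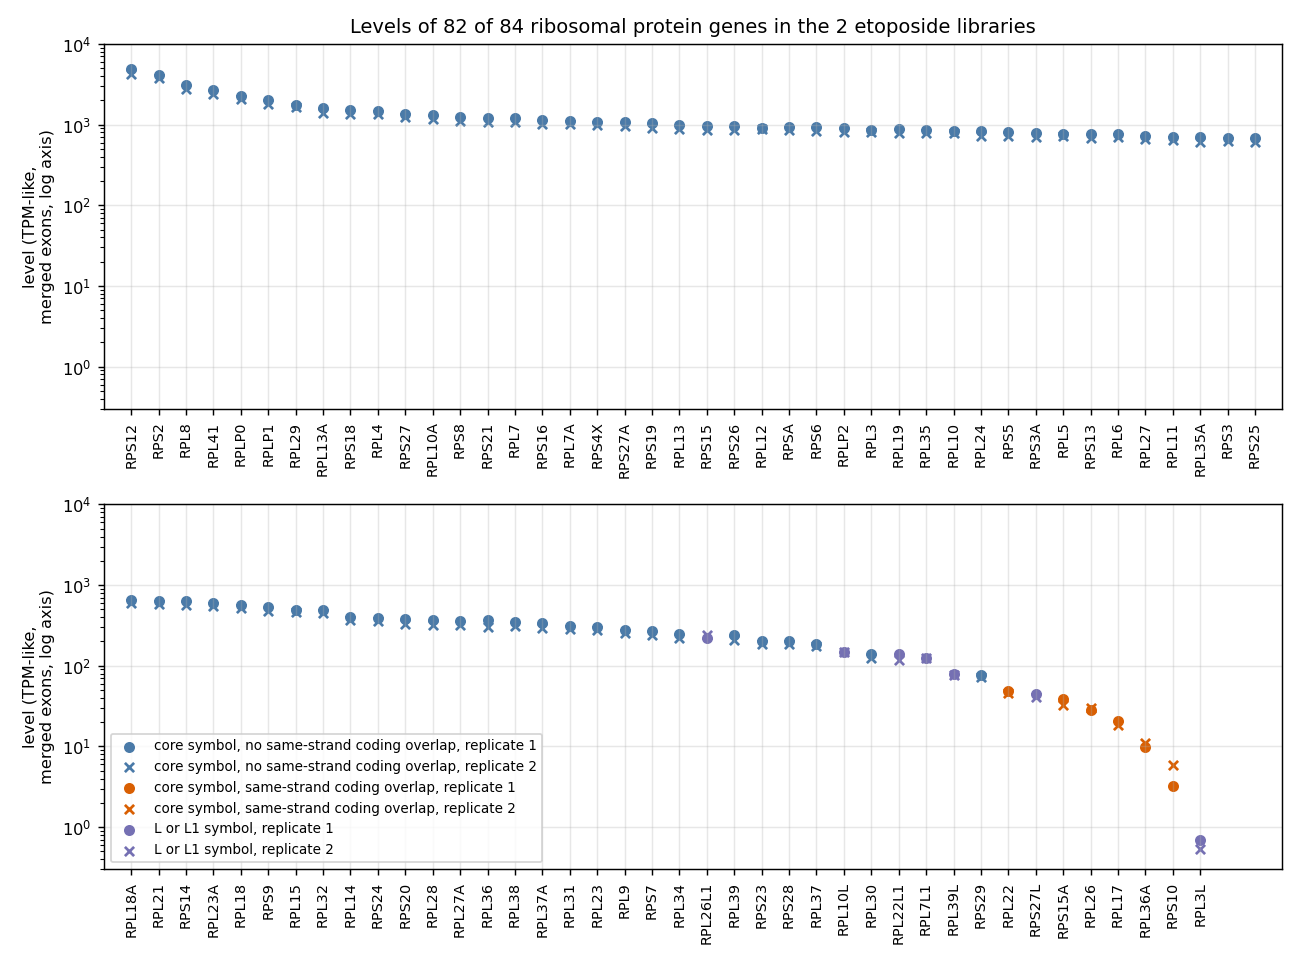
Level of 82 of the 84 members (TPM-like value over merged exons, log axis) in etoposide replicate 1 (circles) and 2 (crosses), ordered by the mean. The core genes with a same-strand coding overlap (orange) and the suffixed genes (purple) fill most of the low end, from RPS29 (76.6 and 71.9) downwards.

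The length scale mattered for the order. Merged exons include those of retained-intron and other long transcripts, and with the length of the canonical transcript the median over members was 1171. RPS24, a small-subunit protein, moved from rank 53 to rank 6, RPSA from rank 26 to 3 and RPS29 from rank 75 to 38, since their merged exons span 7829, 7689 and 9840 bases and their canonical transcripts 534, 1140 and 295 bases. RPS2 was highest on the canonical scale (6299 and 5795), followed by RPLP0 (4820 and 4519). Over the 77 core members the Spearman correlation between the scales was 0.796, and between the libraries on the canonical scale it was 0.999. These values describe genes that share the same libraries.

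The 10 lowest levels over merged exons included those of RPL3L, RPS10, RPL36A, RPL17, RPL26, RPS15A, RPS27L, RPL22 and RPS29. Of the 10, 7 were the 7 core genes whose canonical transcript overlaps a coding gene on the same strand of the list, for RPS10, RPL17 and RPL36A a read-through gene that joins them to a neighbour. RPS10 shared 84.0% of its canonical transcript with RPS10-NUDT3 and had 47 and 56 counts. RPL17 shared 96.9% with RPL17-C18orf32 and had 313 and 182 counts. RPL36A shared 43.8% with RPL36A-HNRNPH2 and had 245 and 177 counts. RPL26 shared 65.3% with a gene without a symbol and had 435 and 297 counts. RPS15A shared 9.90% and had 1606 and 889 counts, and RPL22 shared 11.2%.

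The overlapping partner genes were listed at 0 counts in both libraries, except RPL17-C18orf32 with 3 and 0. The median level of the 70 other core genes was 25.6-fold that of the 7 over merged exons (741 and 28.9) and 24.7-fold on the canonical scale. Over merged exons all 70 lay above the highest of the 7, and on the canonical scale 69 did, the exception being RPL37 at 117. The 6 core genes with over 20% of the canonical transcript overlapped on the opposite strand only (RPL38, RPL10, RPL30, RPS28, RPS3A and RPS6) had canonical levels between 188 and 1174. How the counting treated reads in shared exons was not given in the sources used here, and its part in the low counts was not tested. The counts of these 7 genes are therefore uncertain as measures of their mRNAs. The split into 7 and 70 was made after the values were seen, and no test was made of it.

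**Figure D4:**
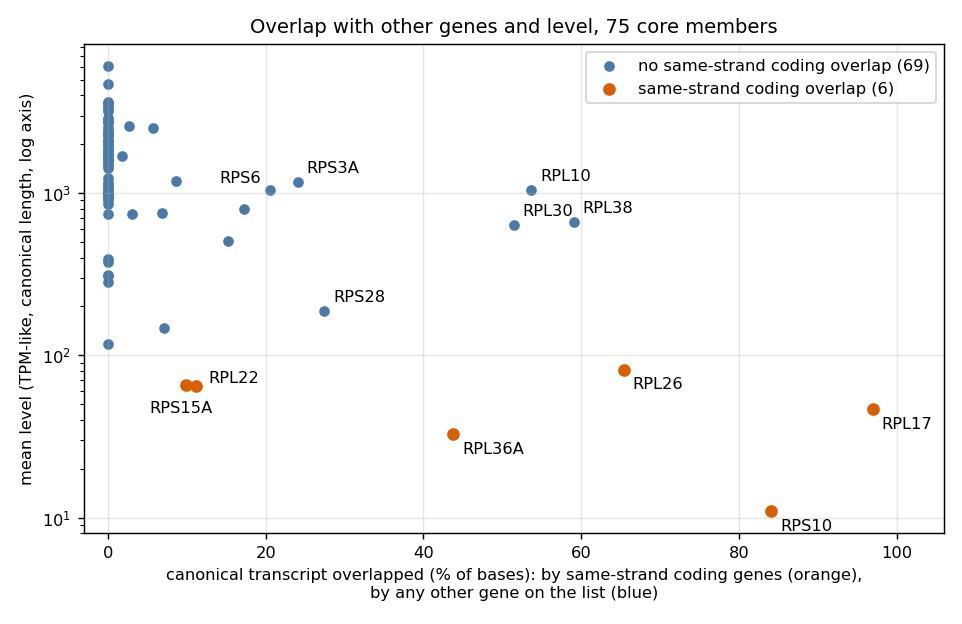
Mean level of 75 of the 77 core members in the etoposide libraries (canonical length, TPM-like, log axis) against the share of the canonical transcript (%) that overlaps same-strand coding genes (orange, 6 of 7 genes) or any other gene on the list (blue, 69 of 70 genes). The orange genes lie between 11.0 and 81.6, and the blue genes with over 20% overlap lie between 188 and 1174.

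Reads can also fall on near-identical processed copies. Of the 1599 RPL and RPS pseudogenes on the list 579 had a count, and together they held 30156 and 18962 counts, which is 2.45% and 2.62% of the members' counts. RPS2P5 (12731 and 7633), RPS28P7 (4314 and 2583) and RPSAP15 (3865 and 2360) held 69.3% and 66.3% of these. RPS28P7 had 160% and 161% of the counts of RPS28 itself (2695 and 1608), a small-subunit protein, so that the level of RPS28 (204 and 187) is uncertain. RPS2P5 had 20.5% and 20.9% of the counts of RPS2. RPS10P7 had 191 and 116 counts, above those of RPS10 in both libraries. RPL21 had the most pseudogenes, 133.

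The suffixed copies spanned a wide range. RPL26L1 had the highest level (220 and 238 over merged exons), above that of RPL26 (28.2 and 29.6), whose counts are uncertain as described. RPL22L1, a paralogue that can replace RPL22 in the ribosome, had 140 and 119, above RPL22 at 48.1 and 46.4, whose counts are uncertain too. The groups of values of these pairs did not overlap on the canonical scale either, with 212 and 233 for RPL26L1 against 79.0 and 84.2 for RPL26, and 90.5 and 78.0 for RPL22L1 against 65.1 and 63.7 for RPL22. That scale changes the length and not the counts. The other 5 lay below their core genes. RPL10L, an intronless copy known for its expression in testis, had 148 and 149 against 836 and 789 for RPL10. RPL7L1 had 125 and 124 against 1194 and 1086 for RPL7. RPL39L, also known from testis, had 79.5 and 77.1 against 241 and 211 for RPL39. RPS27L, known to be induced by DNA damage, had 44.8 and 41.5 against 1358 and 1259 for RPS27. RPL3L, known for its expression in skeletal and heart muscle, had 0.698 and 0.536 against 869 and 814 for RPL3. RPL10L has no intron to separate it from RPL10 and its pseudogenes, and reads shared with them were not tested for.

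The etoposide libraries were then set against each other, which compares libraries and not conditions. Over TMM-scaled counts the median log2 ratio of replicate 2 over replicate 1 was -0.23 in the 77 core genes, with 74 below 0, and -0.011 over the 17207 expressed genes, of which 52.0% were below 0. By a two-sided exact binomial test at an adjusted p under 0.01 over all 17207 genes, 73 of the 83 members were lower in replicate 2, against 7.89% of all genes. This test covers counting error only, and it calls smaller differences in genes with more counts, as most members are. Among genes with at least 100 counts in each library, 73 of 82 members and 12.7% of all 11117 genes were lower. In the other direction 0 of the 83 members were higher by this test, against 5.03% of all genes. At an unadjusted p under 0.05 by the same test 1 member was higher, and the share of all genes at that threshold is not given here. A difference of over 1.5-fold in either direction was found for 1 member, against 9.06% of all genes, and among genes with at least 100 counts in each library for 0 members, against 0.576% of all genes. The middle 50% of the core genes lay between -0.25 and -0.19.

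The 5 lowest ratios were those of RPL36 (-0.35, 5200 and 2810 counts), RPL35A (-0.31, 12820 and 7076 counts), RPL22L1 (-0.31, 1795 and 991 counts), RPS15A (-0.31, 1606 and 889 counts) and RPL13A (-0.29, 32243 and 18145 counts). Their adjusted p-values by the exact binomial test were between 4.00e-100 for RPL13A and 5.46e-06 for RPS15A. The 5 highest included those of RPS10 (0.79), RPL36A (0.075), RPL26L1 (0.037) and RPL26 (-0.0072), and 4 of the 5 are genes with a same-strand coding overlap. RPS10 was the member over 1.5-fold apart, at 47 and 56 counts (exact binomial adjusted p = 0.0359), and it did not pass the test. RPL22 (-0.13, exact binomial adjusted p = 0.125), RPL10L (-0.066), RPL39L (-0.12), RPL7L1 (-0.088) and RPL17 (-0.24) did not pass it either. All 70 core genes without a same-strand coding overlap were lower.

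Transcript length moved with this ratio. Across 13715 coding genes the Spearman correlation of the log2 ratio with the canonical length was 0.369, and with the GC content of the transcript it was -0.024. The median ratio of the other coding genes rose from -0.19 under 1000 bases (n = 671) to -0.12 from 1000 to 1999 bases, -0.047 from 2000 to 3999, 0.037 from 4000 to 7999 and 0.13 from 8000 bases. The members had -0.23 under 1000 bases (n = 47), -0.21 from 1000 to 1999 (n = 17), -0.21 from 2000 to 3999 (n = 13) and -0.18 from 4000 to 7999 (n = 6). The members' ratio thus varied little with length, and below 1000 bases it was near that of other coding genes. The part of length or of RNA quality in the ratio was not tested.

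**Figure D5:**
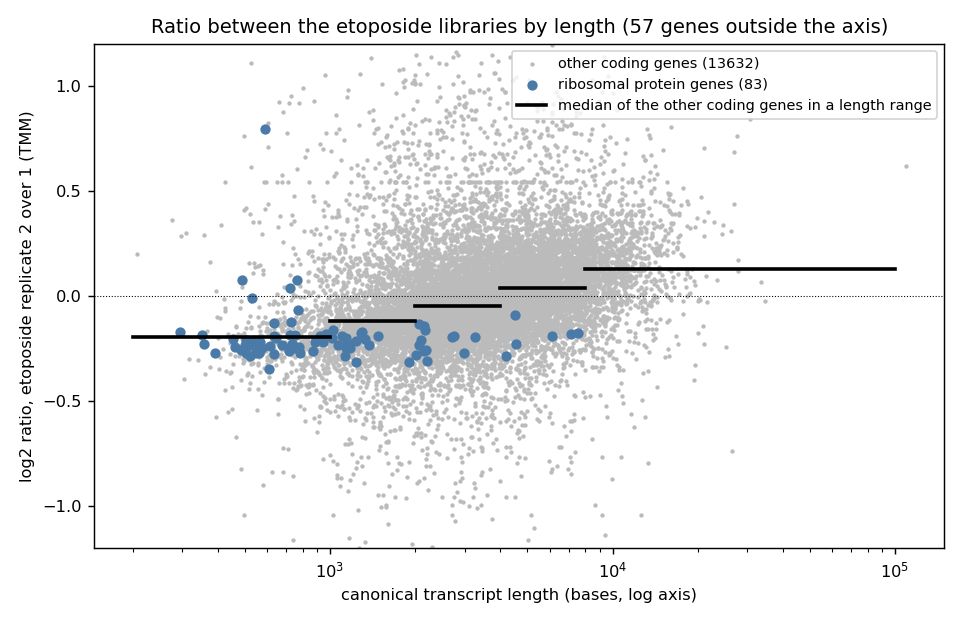
Log2 ratio of etoposide replicate 2 over replicate 1 (TMM-scaled) against canonical transcript length (bases, log axis) for 83 members (blue) and 13632 other coding genes (grey), with the median of the other genes in 5 length ranges (black bars) and 57 genes outside the axis. The black bars climb from -0.19 to 0.13, while most members lie near -0.2 at every length.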

How the data were processed

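RNA-Seq was made from poly-A RNA of U2OS cells. Per the labels and the study's methods, the authors aligned the reads with HISAT2 2.1.0 to GRCh38, counted them per gene with featureCounts of Subread 2.0.0 and used DESeq2 1.30.1. The deposited values are raw counts, whole numbers without normalization. Settings for strand and for reads that map more than once are not given in the sources used here. Incomplete last lines were left out. Groups came from the labels. Symbols, lengths and overlaps were taken from GENCODE release 44 (60357 of 67140 identifiers had a symbol).

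RPL22 was tested with edgeR 4.0.16 (R 4.3.3) over the 280 genes that the control and etoposide libraries share, of which 118 passed the default filter on low counts, with TMM scaling, no replicate block and Benjamini-Hochberg adjustment. DESeq2 1.42.0 was an alternative. The sums over these genes (75327 to 113448 counts per library) are not library depths. The etoposide libraries were compared by an exact binomial test (scipy 1.17.1). The edgeR step was tested on simulated data of the etoposide and control comparison, run on 280 genes. It recovered 182 of 185 genes changed by 2 on the log2 scale and called 0 of 987 unchanged genes. All genes were simulated with the same dispersion, and changes as small as that of RPL22 were not simulated. The binomial step, run on 17207 genes of the etoposide libraries simulated with counting noise alone, recovered 196 of 200 genes changed 2-fold.

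Named genes were RPL22, the 10 highest and 10 lowest levels, the 5 most apart in each direction between the etoposide libraries, every member with an L, L1 or X suffix, those with at least 20% of exon bases overlapped, RPL5, RPL11, RPL23, RPSA and the stalk genes. Others were named after their values were seen, and some genes that the rule names are not reported here. Members and gene lists were chosen with earlier results of these data known. In the shared genes, the deviations of equally numbered libraries had a correlation of -0.18 over 104 genes, so the numbers were not taken to pair the libraries.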

Additional observations from a re-analysis of the deposited data

How the results depend on the processing

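RPL22 was lower after etoposide in 13 of 14 alternatives and was called in 0, with adjusted p-values from 0.0181 to 0.676, and it reversed to 0.11 with upper-quartile scaling. The alternative with an adjusted p under 0.05 used the main fit, so its direction could not differ. Leaving out each library in turn gave log2 changes of -0.21 to -0.15. Relative to the median of the genes tested in each setting, RPL22 lay between -0.33 and -0.19, a value that scaling alone hardly moves. A replicate block in the fit gave a log2 change of -0.22 (edgeR adjusted p = 0.112), and 2 genes were called higher and 3 lower, as without it. A crossed block, chosen after seeing the data, gave 2 higher and 3 lower calls. Over the genes tested, the 2 higher calls became 5 with upper-quartile scaling and 4 at an adjusted p under 0.05. The 3 lower calls became 4 at an adjusted p under 0.05 and 4 when each library had to hold 10 counts of a gene. When a library was left out, the lone library of its group was assumed to vary like those of the other group. Calls from such fits are not given here. With at least 100 counts in both libraries 0 members were over 1.5-fold apart, since RPS10 was removed, and 72 to 73 were lower under the alternatives. The median level was 1171 with canonical lengths, and a start run within 5 bases was found in 90.3%. With 2 libraries a group, and only RPL22 in the control libraries, no treatment effect could be examined for the other 83 members.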

Other observations

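The ribosome also holds proteins whose genes carry other symbols. FAU, which encodes RPS30 fused to a ubiquitin-like protein, had a level of 632 and 562 over merged exons in the etoposide libraries. RACK1, a scaffold on the small subunit, had 378 and 349. Both were lower in replicate 2, with log2 ratios of -0.25 and -0.19 (exact binomial adjusted p = 2.5e-14 and 1.57e-19). They thus lay in the range of the members.

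Of 13 other genes known to make TOP mRNAs, 12 had at least 10 counts in both libraries. Of the 12, 10 were lower in replicate 2 and 0 higher by the exact binomial test, against 7.89% and 5.03% of all genes. At an unadjusted p under 0.05 by this test 1 of the 12, EEF2, was higher, and the share of all genes is not given. The median log2 ratio of the 12 genes was -0.14, against -0.011 over all genes. The elongation factor gene EEF1A1 had 195288 and 117042 counts and a ratio of -0.20, and EEF2 had 39579 and 27724 counts and 0.029. EEF1G, another elongation factor gene, was listed at 0 in both libraries, and 99.5% of its canonical transcript overlaps a coding gene on the same strand. Of 36 ribosome assembly genes 11 were lower and 3 higher, against the same shares of all genes, with a median ratio of -0.098. The lower ones included NPM1 (38799 and 22997 counts, ratio -0.21) and FBL (5845 and 3314 counts, ratio -0.28), nucleolar proteins of rRNA processing, and the higher ones were MDN1, HEATR1 and POLR1A (0.44, 0.31 and 0.22). Of 10 regulators of TOP mRNA translation 1 was lower, EIF4EBP1 (-0.23), which is near the 7.89% of all genes, and 3 were higher, LARP1 (0.18), MTOR (0.22) and TSC2 (0.21), against 5.03%. These are differences between libraries of the same treatment, and the part of transcript length in them was not tested.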
